A study of Rattus norvegicus with 15 samples.

Results

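The photoreceptor cilium and ciliary transport genes were examined as a group of 40 named genes, and 37 of them were found in the symbol column of the deposited tables among 20375 genes listed. All 37 passed the minimum mean level (about the log2 of 10, averaged across the 15 libraries) and so were among the 15424 genes tested. Rpgrip1, Ift172 and Rp1l1 were not found under these symbols and were not analysed here. The values are the authors' rlog values, a log2 scale in which library size is accounted for and each gene's values are pulled toward their average, so a difference of 1 stands for a 2-fold change.

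RNA was sequenced from retinal tissue of wild-type Sprague-Dawley rats labelled as postnatal week 12 and as day 31 after transplantation, with 3 libraries in each of 5 groups. The NT group was healthy and untreated, whereas the Sham group received systemic sodium iodate (NaIO3, 40 mg/kg) and an injection of vehicle without cells into the vitreous. The MSC, MSCEPO and DPSC groups received the same NaIO3 dose and an intravitreal injection of cells: mesenchymal stem cells, the same kind of cells transduced with a lentivirus carrying the human erythropoietin gene, or cells labelled DPSC. The labels give the rats with xenografts intraperitoneal dexamethasone (2 mg/kg) before surgery and oral cyclosporin (10 mg/kg/day) after it. Cells and drugs cannot be told apart in comparisons with NT, nor in those with Sham if the vehicle rats did not receive the drugs, which the labels leave unsaid. The paper's groups do not include DPSC, and the labels do not spell the abbreviation out. The study calls the libraries biological replicates, while the labels do not name the animal behind each, and p-values here measure the spread between these libraries.

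The outer segment of a rod or cone, where light is captured, is a modified primary cilium joined to the cell body by a narrow connecting cilium. Outer segment proteins pass through it. The intraflagellar transport (IFT) trains, the kinesin-2 motors and the BBSome, a coat-like complex named after Bardet-Biedl syndrome, take part in transport along cilia. Lipid-anchored phototransduction proteins are ferried by the carriers UNC119 and PDE6D and released by the small GTPase ARL3. Mutations in many of these genes cause inherited photoreceptor degeneration in people. NaIO3 is a toxicant of the retinal pigment epithelium, after which photoreceptors degenerate.

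Against NT, calls were spread unevenly over the roles, a difference that was not itself tested. BBSome subunits, the motor subunit Kif3b, the ciliary microtubule protein gene Fam161a and the lipidated-protein carriers Unc119 and Arl3 were lower in injured retinas with cells, 1 IFT gene, Ift57, was higher, and the 7 connecting cilium genes among the members passed the test in no comparison, although 4 further transition zone genes of a wider list fell. In the limma fit of all 15 libraries, 14 members changed in MSC (13 lower, 1 higher), 17 in MSCEPO (16 lower, 1 higher) and 5 in DPSC (4 lower, 1 higher), each at an adjusted p under 0.05. Of all tested genes, 6.37%, 5.81% and 1.41% were called lower in these comparisons, and 11.0%, 5.83% and 1.43% higher. The 1 rise among 37 members is a smaller share than that of all genes in MSC and MSCEPO. No member passed in Sham (0.888% of all genes called), where the same genes had smaller estimates of the same sign. No member passed the test when any cell-treated group was compared with Sham, or MSCEPO with MSC. Hardly any gene did: the shares of all genes called were 0% in MSC, 0.0259% in MSCEPO and 0.0195% in DPSC against Sham, and 0% in MSCEPO against MSC.

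**Figure D1:**
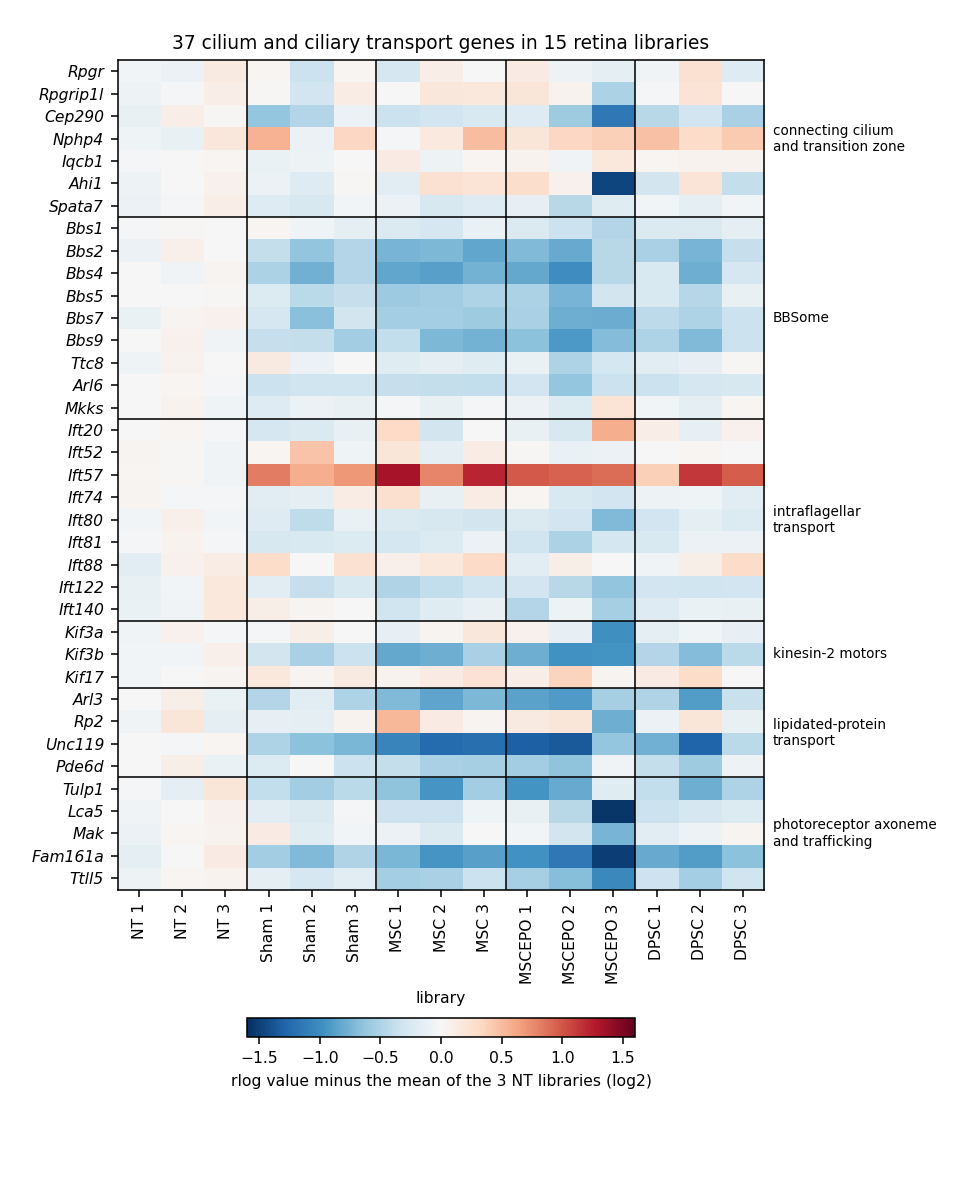
Each cell is the rlog value of 1 member (row, grouped by role) in 1 library (column) minus the mean of the 3 NT libraries, on a log2 colour scale. Ift57 is above NT in all 12 NaIO3 libraries, Fam161a, Unc119 and most BBSome rows are below NT in all 12, and within the Lca5 row and the Ahi1 row the darkest cell is that of MSCEPO 3.

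Before single genes are described, the state of the tissue is given. The 14 tested rod genes had a mean level 0.63 to 0.81 below NT in the Sham libraries, 1.16 to 1.38 below in MSC, 1.22 to 1.64 below in MSCEPO and 0.69 to 1.43 below in DPSC. Of these rod genes, 2 fell in Sham, 13 in MSC, 13 in MSCEPO and 11 in DPSC against NT. The 15 macrophage and microglia genes were higher than NT by 0.81 to 1.48 in Sham, 1.88 to 3.59 in MSC, 1.5 to 2.36 in MSCEPO and 0.93 to 2.18 in DPSC, with MSC 1 the highest library. Lens and cornea genes were 4.01 above the NT mean in DPSC 1, 3.15 above in DPSC 3 and 2.82 above in MSCEPO 3. In whole retina, fewer photoreceptors and less RNA per photoreceptor cannot be told apart, and the part of these shifts in the member values was not tested. MSCEPO 3 stood apart from the other libraries: it was the lowest of the 15 for 25.1% of all tested genes and the highest for 21.6%.

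The promoters of the genes with the most change are shown first, because several members fell together. RefSeq sequences of the GRCr8 assembly, matched by symbol, were at hand for 32 of the 37 members. The letters searched on both strands were GTTGCC, which are also letters of 1 arm of the X-box bound by RFX factors, regulators of ciliary genes. They were present in the 250 bases before the start of 9 of the 32 members (28.1%), against 9.90% of 27457 promoters of the same length, and in 6 of the 14 members that passed the test in any comparison and had a promoter sequence. The letters and the members were chosen with results known, no test was made, and a match is a description and not a binding site. The whole windows of Fam161a (chr14:101210444-101210693, + strand) and Unc119 (chr10:63735749-63735998, + strand), the 2 members that fell by over 2-fold, are given in the order of the gene, with GTTGCC in capitals where it occurs:
Fam161a: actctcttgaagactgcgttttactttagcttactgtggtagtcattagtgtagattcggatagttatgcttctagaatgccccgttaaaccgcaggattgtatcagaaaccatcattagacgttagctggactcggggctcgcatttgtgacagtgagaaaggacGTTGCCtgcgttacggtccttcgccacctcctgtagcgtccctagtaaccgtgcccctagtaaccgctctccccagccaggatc
Unc119: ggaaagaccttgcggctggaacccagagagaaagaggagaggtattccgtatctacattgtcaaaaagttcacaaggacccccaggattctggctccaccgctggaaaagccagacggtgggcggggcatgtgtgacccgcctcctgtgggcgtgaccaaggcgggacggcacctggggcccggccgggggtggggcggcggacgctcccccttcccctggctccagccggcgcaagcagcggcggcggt
The capitals begin at position -84 from the start of Fam161a, and Unc119 has no such letters in this window. Shorter windows around the match follow for the other 5 members that fell and had it (Arl6, chr11:54181327-54181357, + strand; Bbs5, chr3:74818583-74818624, + strand; Ift81, chr12:39618593-39618621, + strand; Ttll5, chr6:111213848-111213881, + strand; Tulp1, chr20:6425966-6426007, - strand). Capitals mark GTTGCC, or GGCAAC where it is on the opposite strand:
Arl6: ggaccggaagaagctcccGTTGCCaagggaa
Bbs5: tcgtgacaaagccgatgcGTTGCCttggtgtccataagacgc
Ift81: gaagtgacatcactgcatGGCAACcgttg
Ttll5: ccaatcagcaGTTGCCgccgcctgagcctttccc
Tulp1: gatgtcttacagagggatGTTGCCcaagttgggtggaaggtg
The remaining matches were in Ift88, Kif3a (at 2 places) and Rp2, which passed the test in no comparison. Both X-box arms, GTNNCC and GGNNAC with 2 bases between them, of which the first can overlap GTTGCC, were found in Ahi1, Mak and Nphp4 (3 of 32, 9.38%, against 1.47% of all promoters), and none of these 3 genes passed the test. With 1 base between the arms they were in 0 of 32 members and 0.841% of all promoters. Letters of photoreceptor factors were about as frequent as elsewhere: TAATCC, the core of CRX sites, was in 6.25% of members and 6.33% of all promoters, and TGCTGA, an arm of NRL-type sites, in 15.6% and 15.2%. CCAAT was in 31.3% and 34.3%.

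The first question was how injured retina without cells, that is, Sham, differed from NT. Sham rats received both NaIO3 and an injection of vehicle into the eye, and these cannot be told apart here. By limma, 0 of 37 members passed the adjusted test, beside 0.888% of all tested genes called (0.331% lower and 0.558% higher), and with a further 2-fold threshold 0.292% of all genes were called. At an unadjusted p under 0.05, 13 members were lower and 1 higher, where 6.06% and 6.29% of all genes were. In 17 members every Sham library was below every NT library and in 1 every Sham library was above, against 15.3% and 16.6% of all genes. The median log2 difference of the members was -0.17, beside 0.0047 for all genes. The smallest adjusted p was that of Fam161a (-0.58 ± 0.13, SE, adjusted p = 0.0622), followed by Bbs2 (-0.49 ± 0.12, adjusted p = 0.0786). When Sham and NT were fitted without the other 3 groups, 10 members passed (9 lower, beside 3.55% of all genes in that fit, and Ift57 higher, beside 5.10%), so the count for Sham depends on which libraries set the spread.

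The second question was how the retinas with cells compared with healthy retina. For MSC against NT, 13 members fell (6.37% of all genes were called lower) and 1 rose (11.0% called higher). For MSCEPO against NT, 16 fell (5.81%) and 1 rose (5.83%), and for DPSC against NT, 4 fell (1.41%) and 1 rose (1.43%; 2.85% in either direction). The calls over 2-fold were Unc119 and Ift57 in MSC, Fam161a and Unc119 in MSCEPO and 0 members in DPSC, where 6.70%, 3.57% and 0.784% of all genes were so called. All 3 comparisons use the same 3 NT libraries, and their values are given side by side, not as independent repeats. Median log2 differences over the 37 members were -0.20 in MSC, -0.37 in MSCEPO and -0.16 in DPSC, and those over all genes were 0.0016, -0.0036 and 0.0037. Negative estimates made up 25, 32 and 29 of the 37, beside 49.7%, 50.5% and 49.4% of all genes. All libraries of the group were below all NT libraries for 22 members in MSC (21.2% of all genes), 20 in DPSC (15.7%) and 20 in MSCEPO (2307 of all 15424 genes). Without MSCEPO 3, 17 members passed for MSCEPO, where 19.4% of all genes were called, beside 11.6% in the fit of 15 libraries. Without MSC 1, 12 passed for MSC, where 11.3% of all genes were called, beside 17.4%. The DPSC count changed with the libraries used, as did the share of all genes called. It was 1 without NT 1 (0.920% of all genes), 1 without NT 2 (0.992%) and 0 without NT 3 (0.648%). Without DPSC 1 it was 3 (1.69%), without DPSC 2 it was 1 (1.17%) and without DPSC 3 it was 6 (2.94%).

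**Figure D2:**
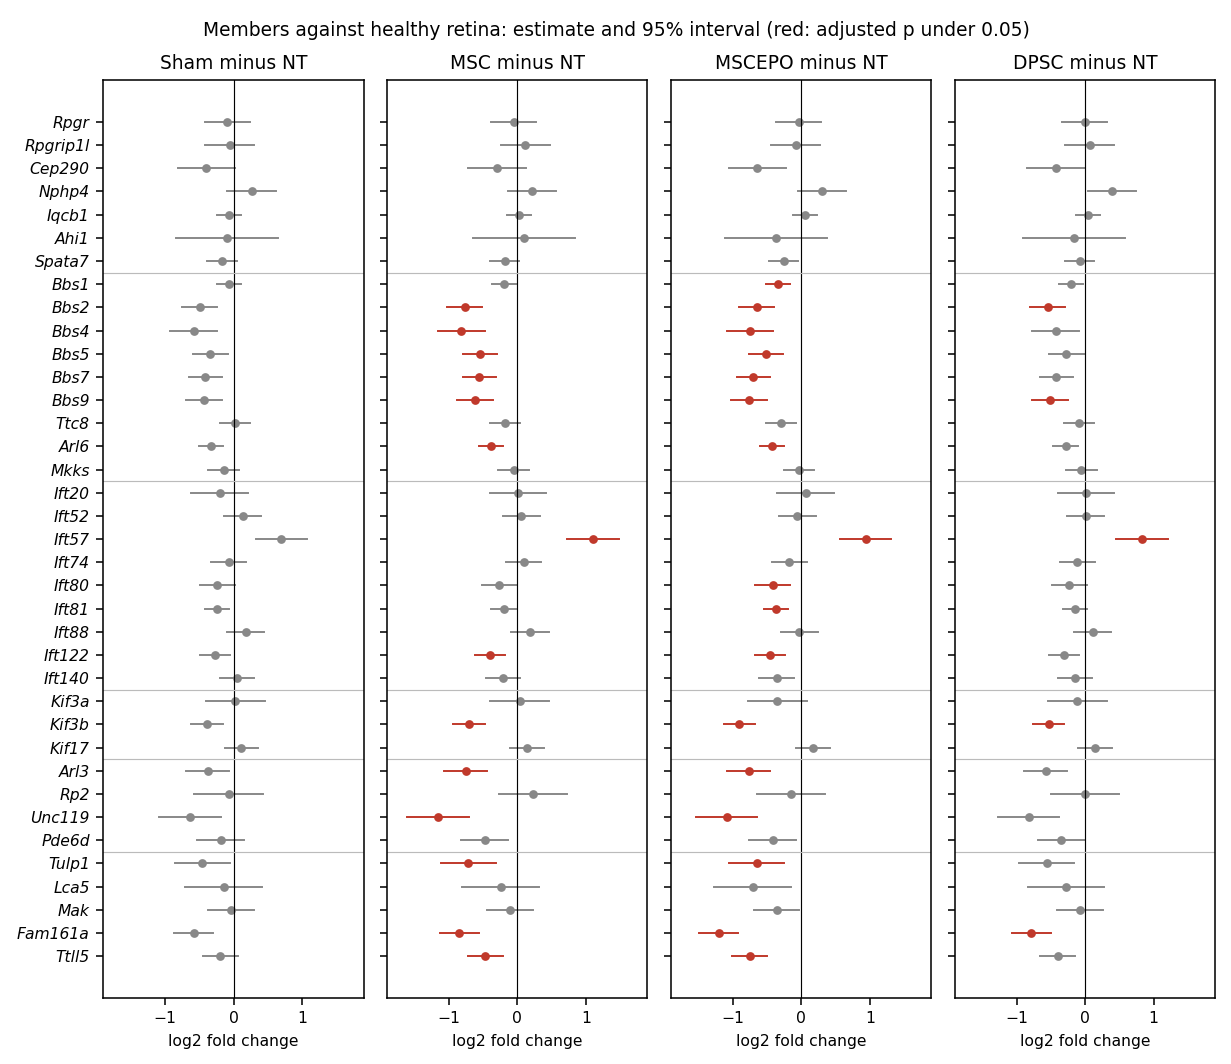
Points are log2 differences from NT for each member (rows, by role) and lines their 95% intervals in the fit of 15 libraries, red where the adjusted p was under 0.05. Red points are 0 in Sham, 14 in MSC, 17 in MSCEPO and 5 in DPSC, and the connecting cilium rows at the top have none.

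Among the connecting cilium and transition zone genes, Cep290 encodes a scaffold of the transition zone, Rpgr the retinitis pigmentosa GTPase regulator, Rpgrip1l and Nphp4 its transition zone partners, Iqcb1 a CEP290-binding protein (nephrocystin-5), Ahi1 jouberin and Spata7 a connecting cilium protein of photoreceptors. Of these 7 genes, 0 passed the limma test in any of the 8 comparisons of the 15-library fit. Of all genes, 0.888% were called against NT in Sham, 17.4% in MSC, 11.6% in MSCEPO and 2.85% in DPSC. In the other comparisons at most 0.0259% were. Among as few as 7 genes, 0 calls is not far from these shares. Cep290 passed in MSCEPO against NT with median centring (-0.65, adjusted p = 0.0353) and without MSCEPO 1 (-0.86, adjusted p = 0.0121), and other passes, all under array weights, are given with the alternatives. At an unadjusted p under 0.05, 0 were lower in Sham or MSC (12.9% of all genes in MSC), 2 in MSCEPO (13.4%) and 1 in DPSC (7.90%) against NT, and 1 was higher in DPSC (8.91%, beside 17.9% in MSC and 13.6% in MSCEPO, where 0 were). Cep290 came closest to the threshold. Its rlog values were 12.96, 13.19 and 13.10 in NT, 12.46, 12.61 and 12.99 in Sham, 12.73, 12.78 and 12.84 in MSC, 12.88, 12.51 and 11.94 in MSCEPO and 12.64, 12.77 and 12.56 in DPSC. Every MSC, MSCEPO and DPSC library was below the lowest NT library, and Sham overlapped NT at the top. The difference of MSCEPO from NT was -0.64 ± 0.19 (SE, adjusted p = 0.0508), and MSCEPO 3 was the lowest of the 15 libraries.

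Nphp4 was the member of this class with the largest positive estimates, 0.27 in Sham and 0.39 in DPSC against NT, both short of the threshold. Ahi1 was between 11.38 and 12.04 in 14 libraries and 10.29 in MSCEPO 3, so that its MSCEPO mean of 11.39 ± 0.96 (SD, n = 3) was set by 1 library. Means of the groups for Iqcb1 lay between 9.60 and 9.72, for Rpgr between 8.40 and 8.49, for Rpgrip1l between 9.70 and 9.90 and for Spata7 between 9.54 and 9.80. These 4 genes thus moved by at most 0.26 between any pair of group means. The mean level of all 7 genes ranged from -0.25 to 0.08 around the NT mean in 11 of the 12 NaIO3 libraries and was -0.42 in MSCEPO 3.

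The BBSome class holds the 7 core subunits Bbs1, Bbs2, Bbs4, Bbs5, Bbs7, Bbs9 and Ttc8 (BBS8), the GTPase Arl6 (BBS3) that recruits the complex to membranes, and Mkks (BBS6), a chaperonin-like assembly factor. Against NT, 6 of the 9 fell in MSC (6.37% of all genes), 7 in MSCEPO (5.81%) and 2 in DPSC (1.41%), and 0 passed in Sham, where 6 were lower at an unadjusted p under 0.05 (6.06%). The mean level of the 9 genes was below every NT library in all 12 NaIO3 libraries, by 0.23 to 0.38 in Sham, 0.43 to 0.48 in MSC, 0.39 to 0.66 in MSCEPO and 0.20 to 0.44 in DPSC. The Sham and MSC ranges did not overlap, DPSC overlapped both, and MSCEPO overlapped MSC.

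Bbs2, a core subunit, had rlog values of 11.15, 11.34 and 11.26 in NT, 10.87, 10.62 and 10.78 in Sham, 10.51, 10.53 and 10.41 in MSC, 10.54, 10.45 and 10.81 in MSCEPO and 10.73, 10.50 and 10.89 in DPSC. All 12 NaIO3 libraries were below NT, and MSC was also below Sham. By limma, Bbs2 fell by 0.77 ± 0.12 in MSC (SE, adjusted p = 0.00168), by 0.65 ± 0.12 in MSCEPO (adjusted p = 0.00415) and by 0.55 ± 0.12 in DPSC (adjusted p = 0.0286). The DPSC call was lost without any 1 of NT 1, NT 2, NT 3, DPSC 1 and DPSC 2 (adjusted p 0.0685 to 0.125).

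Bbs9, another core subunit, was at 11.15, 11.24 and 11.10 in NT, 10.79, 10.79 and 10.61 in Sham, 10.77, 10.45 and 10.41 in MSC, 10.51, 10.25 and 10.48 in MSCEPO and 10.67, 10.46 and 10.82 in DPSC. The order of the group means was NT, Sham, DPSC, MSC and MSCEPO, and the last 4 overlapped in part. Bbs9 fell by 0.62 ± 0.12 in MSC (adjusted p = 0.00525), by 0.76 ± 0.12 in MSCEPO (adjusted p = 0.00199) and by 0.51 ± 0.12 in DPSC (adjusted p = 0.0419). The last call was lost without NT 1, NT 2, NT 3, DPSC 1 or DPSC 2 (adjusted p 0.102 to 0.189).

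Bbs4, whose product binds the pericentriolar protein PCM1, was at 12.11, 12.04 and 12.14 in NT, 11.59, 11.33 and 11.62 in Sham, 11.26, 11.22 and 11.34 in MSC, 11.28, 11.10 and 11.65 in MSCEPO and 11.85, 11.31 and 11.83 in DPSC. No NaIO3 library reached the NT range. The gene fell by 0.82 ± 0.16 in MSC and by 0.75 ± 0.16 in MSCEPO (adjusted p = 0.00482 and 0.00948). Bbs7 fell by 0.55 ± 0.11 in MSC and by 0.70 ± 0.11 in MSCEPO (adjusted p = 0.00613 and 0.00195), and Bbs5 by 0.55 ± 0.12 and 0.51 ± 0.12 (adjusted p = 0.00774 and 0.0137). The MSCEPO call of Bbs5 was lost without NT 3 or MSCEPO 2 (adjusted p = 0.0555 and 0.0537).

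Arl6 varied little within the groups other than MSCEPO. Its values were 11.67, 11.72 and 11.66 in NT, 11.34, 11.37 and 11.36 in Sham, 11.31, 11.30 and 11.29 in MSC, 11.37, 11.07 and 11.35 in MSCEPO and 11.35, 11.42 and 11.43 in DPSC. A gap separated NT from the 12 other libraries, and the fall was 0.38 ± 0.08 in MSC and 0.42 ± 0.08 in MSCEPO (adjusted p = 0.00771 and 0.00599). Bbs1 passed in MSCEPO alone among the 8 comparisons (-0.35 ± 0.08, adjusted p = 0.0162), and not without NT 2 or NT 3 (adjusted p = 0.0617 and 0.0616). Ttc8 (-0.30 in MSCEPO against NT, adjusted p = 0.0801) and Mkks (group means 10.00 to 10.14) passed in no comparison.

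**Figure D3:**
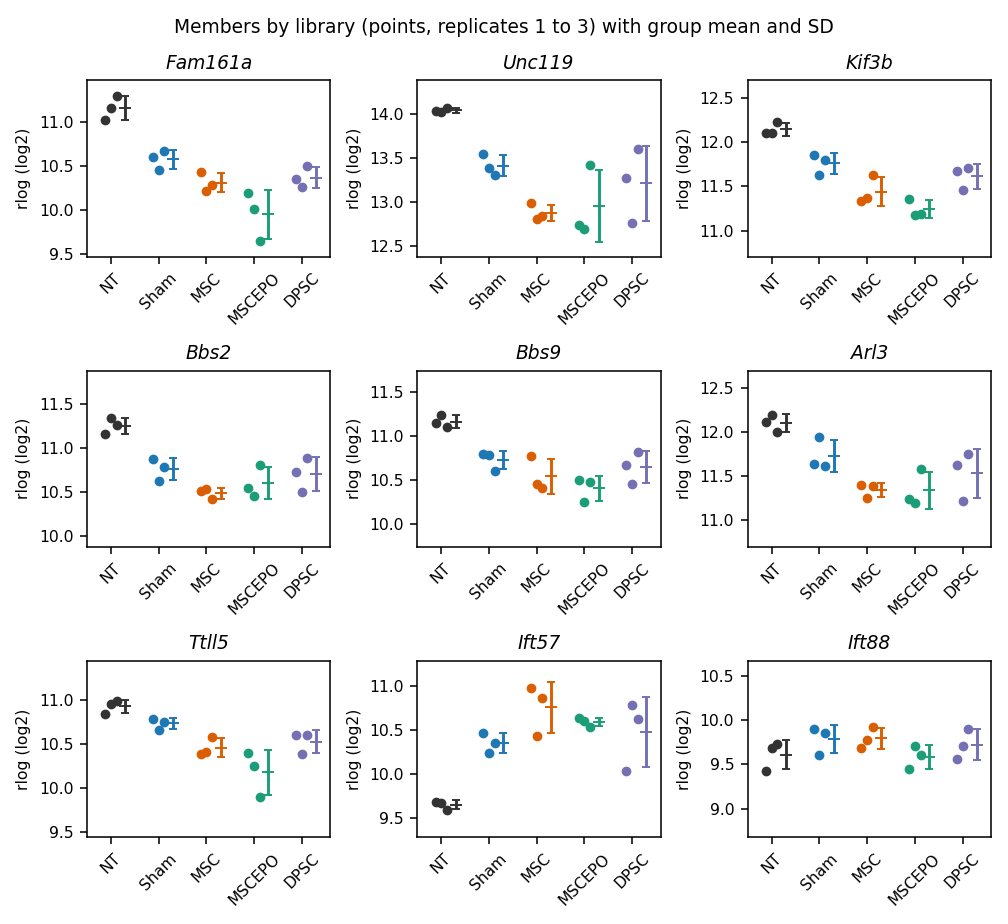
Points are the rlog values (log2) of 9 members in each library, in the order of replicates 1 to 3, with the group mean and SD beside them, and each panel spans 2 log2 units. In Fam161a, Unc119, Kif3b, Bbs2, Bbs9 and Arl3 all 12 NaIO3 libraries are below NT, in Ift57 all 12 are above, and in Ift88 the groups overlap.

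The 9 IFT genes did not move together. IFT trains consist of a B complex, which kinesin-2 pulls outward, and an A complex of the return journey, and here Ift20, Ift52, Ift57, Ift74, Ift80, Ift81 and Ift88 belong to B and Ift122 and Ift140 to A. In MSC against NT, 1 of the 9 fell and 1 rose (6.37% and 11.0% of all genes), in MSCEPO 3 fell and 1 rose (5.81% and 5.83%), and in DPSC 0 fell and 1 rose (1.41% and 1.43%). In Sham 0 passed, with 2 lower and 1 higher at an unadjusted p under 0.05 (6.06% and 6.29%). The single rises, 1 of 9 genes, are near the background share in MSC. The mean level of the class stayed between -0.12 and 0.10 around NT in all 12 NaIO3 libraries.

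Ift57 was the member that rose. It encodes a peripheral IFT-B protein also known as HIPPI, for its binding to the huntingtin-interacting protein HIP1. Its rlog values were 9.69, 9.67 and 9.59 in NT, 10.46, 10.24 and 10.35 in Sham, 10.97, 10.43 and 10.87 in MSC, 10.63, 10.60 and 10.54 in MSCEPO and 10.03, 10.79 and 10.62 in DPSC. Every NaIO3 library was above every NT library, and the ranges of MSCEPO and Sham did not overlap either. By limma, Ift57 rose by 1.11 ± 0.17 in MSC (SE, adjusted p = 0.00189), by 0.94 ± 0.17 in MSCEPO (adjusted p = 0.00491) and by 0.83 ± 0.17 in DPSC (adjusted p = 0.0256). The estimate in Sham was 0.70 ± 0.17 and missed the threshold (adjusted p = 0.0914). The DPSC call was lost without NT 1, NT 2, NT 3, DPSC 2 or DPSC 3 (adjusted p 0.0623 to 0.113).

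Ift122 of the A complex was at 10.65, 10.73 and 10.94 in NT, 10.59, 10.41 and 10.53 in Sham, 10.29, 10.38 and 10.45 in MSC, 10.46, 10.33 and 10.14 in MSCEPO and 10.46, 10.46 and 10.47 in DPSC, so that no NaIO3 library reached the NT range. It fell by 0.40 ± 0.10 in MSC (adjusted p = 0.0172) and by 0.46 ± 0.10 in MSCEPO (adjusted p = 0.0117). Both calls were lost without NT 3 (adjusted p = 0.0808 and 0.0604), and the MSC call also without MSC 1 (0.0603). Ift81, whose product binds tubulin cargo with IFT74, fell in MSCEPO by 0.37 ± 0.08 (adjusted p = 0.0134; without NT 2 or MSCEPO 2, 0.0593 and 0.0547). Ift80 fell there by 0.41 ± 0.12 (adjusted p = 0.0389), and the call was lost without any 1 of NT 1, NT 2, NT 3, MSCEPO 2 and MSCEPO 3 (adjusted p 0.0551 to 0.134).

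The other 5 IFT genes passed in no comparison. Ift88, the subunit whose loss is a classical model of failed ciliogenesis, had group means from 9.59 to 9.80. Those of Ift52 ran from 10.09 to 10.28, of Ift74 from 9.68 to 9.94, of Ift140 from 10.60 to 11.01 and of Ift20 from 10.31 to 10.58. The Ift20 mean in MSCEPO carried an SD of 0.45, with MSCEPO 3 at 11.09 and the others at 10.39 and 10.25.

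The 3 kinesin-2 genes split. KIF3A and KIF3B form 1 motor with a shared accessory subunit and KIF17 pairs with itself. Kif3b was at 12.11, 12.10 and 12.23 in NT, 11.85, 11.63 and 11.80 in Sham, 11.33, 11.37 and 11.63 in MSC, 11.36, 11.18 and 11.19 in MSCEPO and 11.68, 11.46 and 11.71 in DPSC. All NaIO3 libraries were below NT, and MSCEPO was below Sham and DPSC without overlap. Kif3b fell by 0.70 ± 0.11 in MSC (adjusted p = 0.00158), by 0.90 ± 0.11 in MSCEPO (adjusted p = 0.000293) and by 0.53 ± 0.11 in DPSC (adjusted p = 0.0204), the last not without NT 1, NT 2, NT 3 or DPSC 2 (adjusted p 0.0659 to 0.107). Its partner Kif3a passed in no comparison. It was between 10.87 and 11.20 in 14 libraries, NT included, and 10.03 in MSCEPO 3. Kif17 had group means from 6.82 to 6.99.

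Of the 4 genes of lipidated-protein transport, Unc119 and Arl3 fell in MSC and MSCEPO and Pde6d and Rp2 passed in no comparison. UNC119 carries myristoylated transducin alpha, PDE6D prenylated proteins, ARL3 in its GTP form releases both cargoes in the cilium, and RP2 switches ARL3 off. Unc119 was at 14.03, 14.01 and 14.07 in NT, 13.54, 13.38 and 13.30 in Sham, 12.98, 12.80 and 12.83 in MSC, 12.73, 12.69 and 13.42 in MSCEPO and 13.27, 12.76 and 13.60 in DPSC. The NT libraries lay within a narrow band above all the others, MSC lay below Sham, and MSCEPO 3 fell within the Sham range. By limma, Unc119 fell by 55.4% in MSC (log2 -1.16 ± 0.21, adjusted p = 0.00358) and fell by 53.0% in MSCEPO (-1.09 ± 0.21, adjusted p = 0.00585). In DPSC the estimate was -0.83 ± 0.21 (adjusted p = 0.0546) and in Sham -0.63 ± 0.21 (adjusted p = 0.208). The cargo gene Gnat1, transducin alpha of rods, was between 17.83 and 18.04 in NT and between 14.71 and 16.99 in the NaIO3 libraries, and its highest cell-treated values were also in DPSC 1, DPSC 3 and MSCEPO 3.

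Arl3 was at 12.11, 12.20 and 12.00 in NT, 11.63, 11.94 and 11.61 in Sham, 11.40, 11.25 and 11.38 in MSC, 11.24, 11.19 and 11.57 in MSCEPO and 11.63, 11.21 and 11.74 in DPSC. MSC and MSCEPO were below Sham without overlap, whereas DPSC overlapped Sham. It fell by 0.76 ± 0.15 in MSC (adjusted p = 0.00487) and by 0.77 ± 0.15 in MSCEPO (adjusted p = 0.00559), and in DPSC the estimate was -0.57 ± 0.15 (adjusted p = 0.0548). Pde6d had an estimate of -0.48 ± 0.16 in MSC (adjusted p = 0.0575). Rp2 had group means from 6.35 to 6.72 and its lowest value, 5.71, in MSCEPO 3.

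The last class, genes of the photoreceptor axoneme and of trafficking to the outer segment, held the largest fall. FAM161A is a microtubule-associated protein of the connecting cilium and basal body. Fam161a was at 11.01, 11.16 and 11.29 in NT, 10.59, 10.45 and 10.67 in Sham, 10.43, 10.22 and 10.28 in MSC, 10.19, 10.01 and 9.65 in MSCEPO and 10.34, 10.26 and 10.50 in DPSC. The group means ran in the order NT, Sham, DPSC, MSC and MSCEPO, MSCEPO lay below all the others without overlap, and DPSC overlapped both Sham and MSC. Fam161a fell by 44.4% in MSC (log2 -0.85 ± 0.13, adjusted p = 0.00177), fell by 56.6% in MSCEPO (-1.21 ± 0.13, adjusted p = 0.000195) and fell by 42.1% in DPSC (-0.79 ± 0.13, adjusted p = 0.00868). Without MSCEPO 3 the fall in MSCEPO was 1.06 on the log2 scale (adjusted p = 0.000235), and without NT 3 the DPSC call was lost (adjusted p = 0.0506).

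Ttll5 encodes an enzyme that adds glutamate to RPGR and tubulin. It was at 10.84, 10.95 and 10.98 in NT, 10.78, 10.66 and 10.75 in Sham, 10.39, 10.40 and 10.58 in MSC, 10.39, 10.24 and 9.90 in MSCEPO and 10.59, 10.38 and 10.60 in DPSC. MSC, MSCEPO and DPSC lay below Sham, and Sham below NT. Ttll5 fell by 0.75 ± 0.12 in MSCEPO (adjusted p = 0.00182) and by 0.47 ± 0.12 in MSC (adjusted p = 0.0174), the latter not without NT 2, NT 3, MSC 1 or MSC 2 (adjusted p 0.0578 to 0.0669).

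Tulp1, a photoreceptor tubby-like protein of transport to the outer segment, fell by 0.71 ± 0.19 in MSC (adjusted p = 0.0199) and by 0.65 ± 0.19 in MSCEPO (adjusted p = 0.0386). Its calls were not firm. The MSC call was lost without NT 1, NT 3 or MSC 2 (adjusted p 0.0537 to 0.0851), and the MSCEPO call without NT 1, NT 2, NT 3, MSCEPO 1 or MSCEPO 2 (adjusted p 0.0627 to 0.154). Lca5 (lebercilin) and Mak (a kinase of ciliary length control) passed in no comparison. Lca5 was between 9.77 and 10.28 in 14 libraries and 8.66 in MSCEPO 3, and Mak between 11.82 and 12.25 in 14 libraries and 11.37 in MSCEPO 3.

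**Figure D4:**
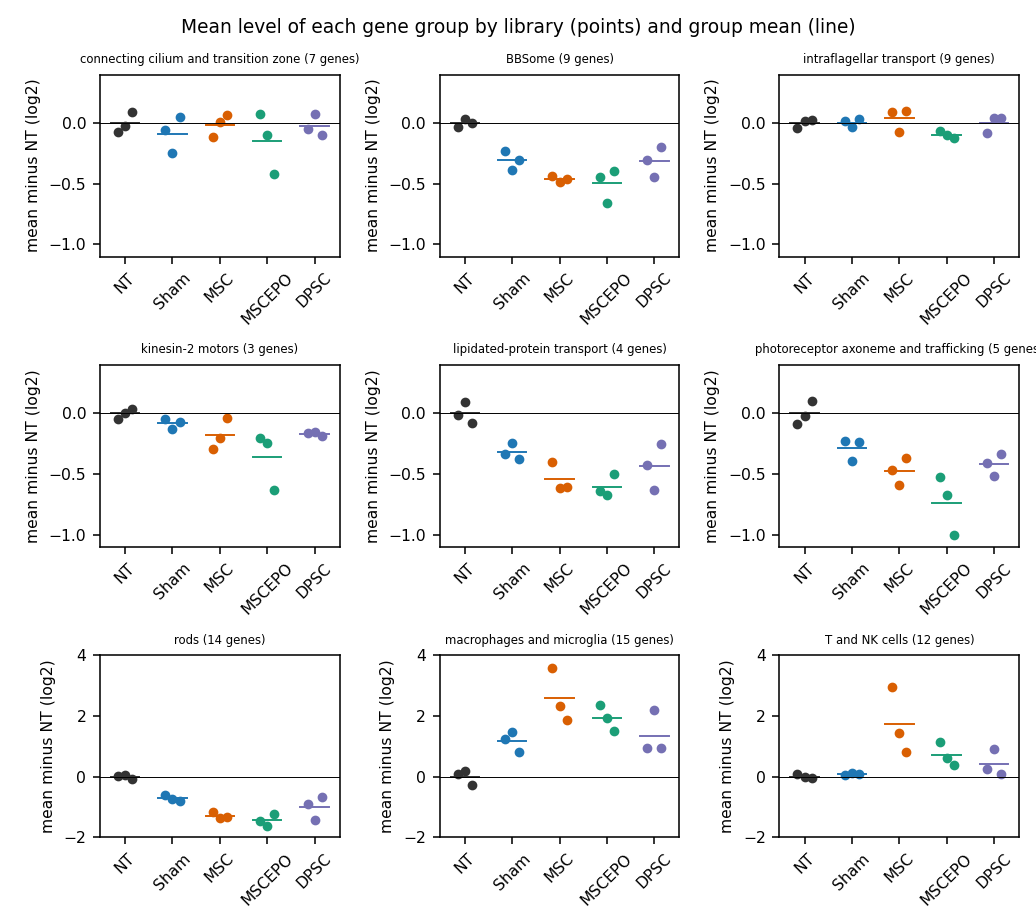
Points are the mean log2 level of each gene class minus NT in 1 library, and lines are group means; the lower row gives rod, macrophage and microglia, and T and NK cell genes on a wider axis. BBSome, lipidated-protein and axoneme classes are below NT in all 12 NaIO3 libraries, while the connecting cilium and IFT classes straddle 0.

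The third question was whether cells altered the injured retina, that is, each cell-treated group against Sham, which share the 3 Sham libraries. For MSC against Sham, 0 of 37 members passed by limma (0% of all genes were called), and at an unadjusted p under 0.05, 6 were lower and 1 higher, beside 3.82% and 9.49% of all genes. For MSCEPO against Sham, 0 passed (0.0259% of all genes called), with 11 lower and 0 higher at an unadjusted p under 0.05, beside 5.12% and 3.19%. For DPSC against Sham, 0 passed (0.0195%), and 0 were lower or higher at the unadjusted threshold, beside 1.39% and 0.985%. Median differences of the members were -0.07, -0.20 and -0.04. Of the 37 estimates, 23, 30 and 22 were negative, against 50.1%, 49.7% and 48.2% of all genes.

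The smallest adjusted p values in these comparisons were those of Kif3b, Fam161a and Ttll5 in MSCEPO against Sham. The estimates were -0.52 (95% interval -0.75 to -0.29, adjusted p = 0.122), -0.62 (-0.91 to -0.34, adjusted p = 0.140) and -0.55 (-0.81 to -0.30, adjusted p = 0.146), and in each gene all 3 MSCEPO libraries were below all 3 Sham libraries. Kif3b also led in MSC against Sham, at -0.32 (-0.55 to -0.09, adjusted p = 0.193). For DPSC against Sham, Fam161a was at -0.21 (-0.49 to 0.08) and Kif3b at -0.15 (-0.37 to 0.08). Ift57 had estimates of 0.41 in MSC and 0.24 in MSCEPO against Sham, with adjusted p = 0.332 and 0.724. A p that misses the threshold does not show that the levels were equal, and the intervals allow differences of these sizes.

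**Figure D5:**
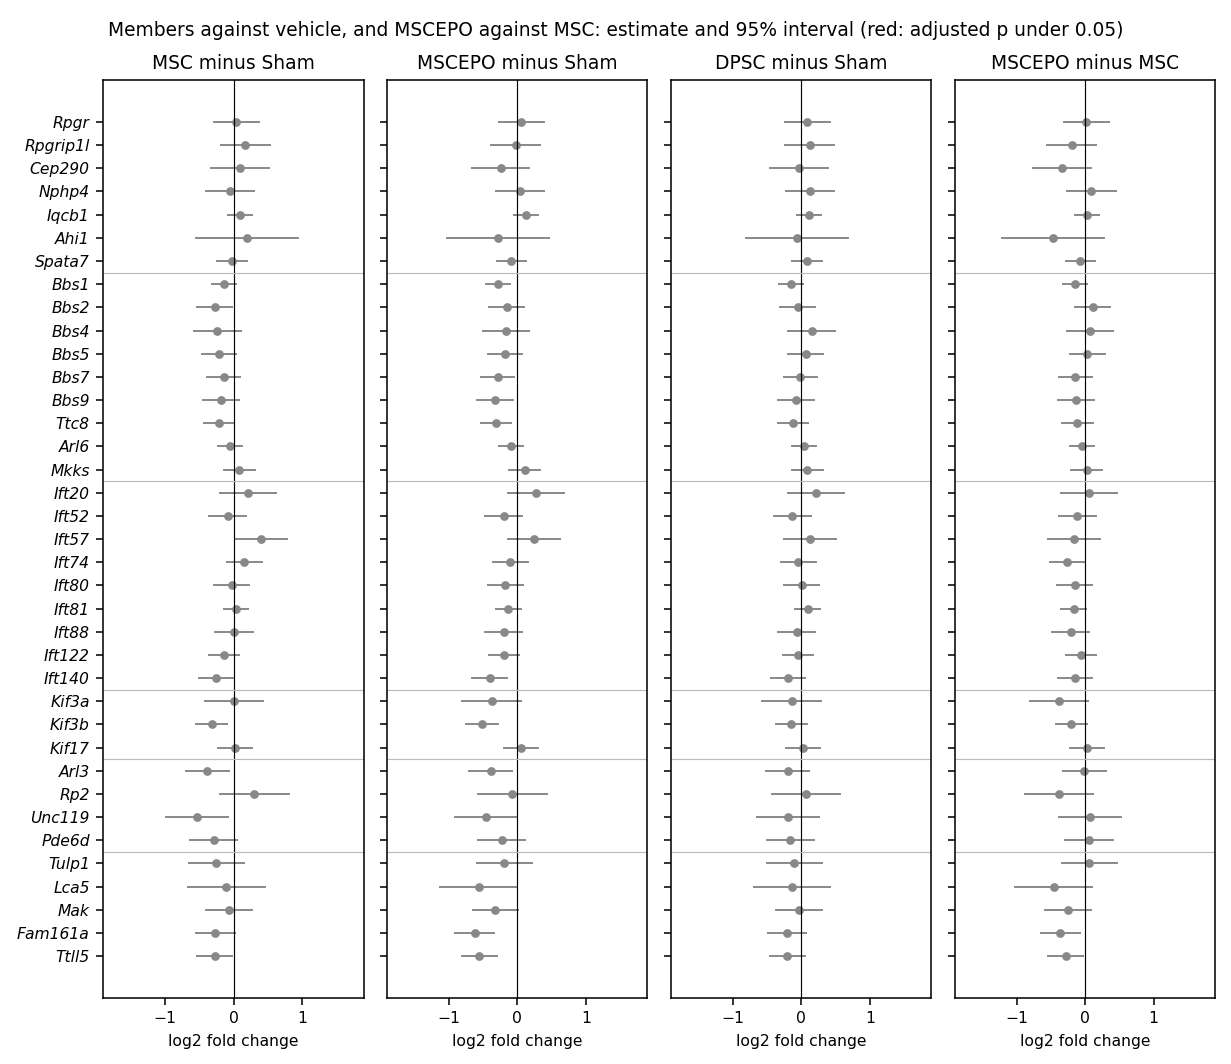
Points are log2 differences of each member with 95% intervals for the 3 cell-treated groups against Sham and for MSCEPO against MSC. No point is red, since 0 of 37 members had an adjusted p under 0.05 in each panel, and in the MSCEPO panel Kif3b, Fam161a and Ttll5 lie farthest from 0 relative to their intervals.

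The fourth question was how retinas with the transduced cells differed from those with unmodified cells. By the paper's methods, the construct also held a fluorescent marker (GFP) and the transduced cells were sorted. Erythropoietin cannot be told apart from these steps here. In MSCEPO against MSC, 0 members passed by limma (0% of all genes called), and 3 were lower and 0 higher at an unadjusted p under 0.05, beside 2.83% and 0.966% of all genes. These were Fam161a (-0.36, 95% interval -0.64 to -0.07), Ttll5 (-0.28, -0.54 to -0.02) and Ift74 (-0.26, -0.52 to -0.0049), each with an adjusted p of 0.754. In Fam161a all 3 MSCEPO libraries were below all 3 MSC libraries, and in the other 2 genes the groups overlapped.

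MSCEPO 3 moved the members apart from one another. It was the lowest of the 15 libraries in 15 of 37 members (40.5%, beside 25.1% of all genes), and MSCEPO 2 was the lowest in 12 (32.4%, beside 5.67%). Against the mean of MSCEPO 1 and MSCEPO 2, the values in MSCEPO 3 were lower by more than 0.5 in Ahi1 (-1.65), Lca5 (-1.27), Rp2 (-0.96), Kif3a (-0.95), Cep290 (-0.75), Rpgrip1l (-0.64) and Mak (-0.58). They were higher by more than 0.5 in Ift20 (0.77), Unc119 (0.71), Tulp1 (0.69) and Pde6d (0.55). These 7 members (18.9%) compare with 24.4% of all genes and the 4 (10.8%) with 13.3%, both below the share over all genes. Rpgrip1l, Rp2, Kif3a, Lca5 and Ahi1 are cases in which the MSCEPO mean describes that library more than the group.

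A wider list of 49 other ciliary genes, of which 48 were found and tested, was read in the same fit. Against NT, 11 fell in MSC (22.9% of the list, beside 6.37% of all genes), 10 in MSCEPO (20.8%, beside 5.81%), 1 in DPSC (2.08%, beside 1.41%) and 0 in Sham (beside 0.331%). In Sham, 9 were lower at an unadjusted p under 0.05, beside 6.06% of all genes. The list had 0 rises in these comparisons, where 11.0% of all genes were called higher in MSC, 5.83% in MSCEPO, 1.43% in DPSC and 0.558% in Sham. Rp1, a microtubule protein of the photoreceptor axoneme, had the largest fall. It was at 15.35, 15.62 and 15.46 in NT, 14.79, 14.54 and 14.71 in Sham, 14.46, 14.43 and 14.45 in MSC, 14.46, 13.97 and 13.52 in MSCEPO and 14.75, 14.43 and 14.75 in DPSC. All NaIO3 libraries were below NT, by 1.03 ± 0.19 in MSC (adjusted p = 0.00434), 1.49 ± 0.19 in MSCEPO (adjusted p = 0.000552) and 0.84 ± 0.19 in DPSC (adjusted p = 0.0384). In MSC, Lztfl1, which regulates BBSome entry into the cilium, fell by 0.47 ± 0.09 (adjusted p = 0.00584), and Cep41 and Wdpcp fell by 0.44 and 0.38. In MSCEPO, Poc5, a centriole protein of the connecting cilium, fell by 0.55 ± 0.10 (adjusted p = 0.00407), and Cep164 and Cep250 fell by 0.66 and 0.59. Another 4 genes of this list, all of the transition zone and named because they fell, were lower in MSC: Tctn1 by 0.65 (adjusted p = 0.0316), Tmem67 by 0.39 (0.0318), Cc2d2a by 0.51 (0.0356) and Tctn3 by 0.46 (0.0416). Of these, Tmem67 fell by 0.50, Cc2d2a by 0.61 and Tctn3 by 0.55 in MSCEPO (adjusted p = 0.0136, 0.0208 and 0.0252), and Tctn1 was at -0.40 there (adjusted p = 0.187). Against Sham, 0 of the 48 passed in MSC, MSCEPO or DPSC, where 0%, 0.0259% and 0.0195% of all genes were called.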

How the data were processed

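Retinal RNA of 15 libraries in 5 groups (NT, Sham, MSC, MSCEPO and DPSC, taken from the sample titles) was analysed. The authors quantified paired-end reads of a stranded mRNA kit with Salmon 1.1.0 against Rnor_6.0, summed them to genes with tximport and applied the DESeq2 rlog transformation, and the deposited log2 values are these rlog values. The submitters' processing notes give the DESeq2 version as 3.2. Library depths cannot be read from such values, no counts being used here, and shrinkage makes fold changes smaller than those of counts, most of all for low genes. The rlog scale also does not show whether a count was 0. A table of the whole series, with 15 columns of per-sample values, was not used.

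Genes with a mean rlog of about the log2 of 10 or more (the minimum for members) were tested with limma 3.58.1 in R 4.3.3, in 1 fit of the 15 libraries with 5 group means and a variance trend on the mean. Tests were two-sided, with Benjamini-Hochberg adjustment over 15424 genes per comparison, and a call is an adjusted p under 0.05. The study's further threshold of a 2-fold change was an alternative, since rlog shrinks folds. The scripts were tested on simulated data. Percentages of change are computed from the log2 differences.

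The members, the gene lists, the letters searched in promoters and the comparisons were chosen with earlier results of these data known. By rule, any member could be named, with the passing members of smallest adjusted p and those of largest change first, up to 4 genes per comparison of the wider list, and Gnat1 as levels. The 4 transition zone genes named from the wider list go beyond this rule and were chosen after their values were seen. Other lists are given as counts and mean levels per library relative to NT. Alternatives were no filter or a stricter one, no trend, median centring, quantile normalization, a replicate block, the 2 groups alone, the 12 libraries without DPSC and each replicate left out. Array weights were added after the data were seen.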

Additional observations from a re-analysis of the deposited data

How the results depend on the processing

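Of the 36 pairs of a member and a comparison that passed the test, 0 changed direction under any alternative run. All 36 stayed past the threshold without the variance trend, with the same minimum required in every library and with array weights, 34 without a filter, 35 with median centring, 30 with quantile normalization, 26 when the 2 groups were fitted alone and 29 of 31 in the 12 libraries without DPSC. Across the fits leaving out 1 replicate, 46 of 216 such pairs lost the call. Tulp1 and Ift80 in MSCEPO lost it in 10 and 9 of 15 alternatives, and in DPSC Bbs9, Bbs2, Ift57, Kif3b and Fam161a in 8, 7, 6, 5 and 1 of 14. Requiring also a 2-fold change left 2 members in MSC against NT (Unc119 and Ift57), 2 in MSCEPO (Fam161a and Unc119) and 0 in DPSC. The count of members for Sham against NT, 0 in the fit of 15 libraries, was 1 with median centring (Fam161a, beside 0.804% of all genes). It was 1 in the 12 libraries without DPSC (Ift57, beside 1.04%) and 10 with the 2 groups alone (beside 8.65%). With the 2 groups alone the counts were 10 in MSCEPO (6.47% of all genes) and 3 in DPSC (2.60%) against NT. Quantile normalization gave 3 in DPSC (1.95%). Leaving out 1 replicate gave 11 to 14 members in MSC against NT, where 8.75% to 17.7% of all genes were called. The counts were 12 to 20 in MSCEPO (5.19% to 19.4%), 0 to 6 in DPSC (0.648% to 2.94%) and 0 in Sham (0.175% to 0.298%). In each of the other comparisons 0 members passed (at most 4.53% of all genes).

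Gene-by-gene array weights, chosen after seeing the data, gave MSCEPO 3 a weight of 0.0826 and MSC 1 a weight of 0.206. All genes gained calls with them. Against NT, 16 members passed in Sham (14 lower, beside 7.92% of all genes), 23 in MSC (20 lower, beside 23.8%) and 20 in DPSC (18 lower, beside 11.5%). Against Sham, 13 passed in MSC and 13 in MSCEPO, all of them lower, beside 6.85% and 3.06% of all genes. Connecting cilium genes that passed against NT in this fit were Cep290 and Nphp4 (higher) in Sham, Rpgrip1l (higher) and Spata7 in MSC, Cep290 and Spata7 in MSCEPO, and Cep290 and Nphp4 (higher) in DPSC. These 13 included Kif3b, Fam161a, Ttll5, Unc119 and Arl3 in both comparisons. The default method for these weights did not converge, and its weights were not used. Weights of all 15 libraries changed at once, and leaving out MSCEPO 3 or MSC 1 alone gave 0 members against Sham.

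Replicate numbers are not stated to pair libraries. Over 30 same-numbered pairs the correlation of deviations from the group means ran from -0.44 to 0.65 (median -0.02), 12 were over 0.1, and 5 of 15 libraries correlated best with their own number. A fit with the replicate number as a block gave 1 member in Sham against NT (Bbs4, beside 0.973% of all genes) and lost 1 call, Ift80 in MSCEPO.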

Other observations

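Genes of motile cilia ran the other way from the photoreceptor cilium genes. The mean level of 7 such genes was above the NT mean in all 12 NaIO3 libraries, by 0.23 to 0.30 in Sham, 0.37 to 0.43 in MSC, 0.02 to 0.58 in MSCEPO and 0.22 to 0.50 in DPSC. By limma, 3 of the 7 rose in MSC, 3 in MSCEPO and 2 in DPSC against NT, beside 11.0%, 5.83% and 1.43% of all genes called higher, and 0 passed in Sham. Within MSCEPO and DPSC, lens and cornea genes did not follow them: relative to NT they were at -0.87 in MSCEPO 1 and -0.84 in DPSC 2. These libraries had the highest motile cilia levels of their groups (0.58 and 0.50). MSCEPO 3, with lens and cornea genes at 2.82, had the lowest (0.02). In MSC both lists ran in the same order. Lens and cornea genes were at 2.12, 0.16 and 1.23 in MSC 1 to 3, and motile cilia genes at 0.43, 0.37 and 0.42. The relation was not tested.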
